A study of Arabidopsis thaliana with 4 samples.

Results

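Transcripts of 5 genes tied to jasmonate and defence, PDF1.2, PDF1.2b, JRG21, OSM34 and LOX2, were followed through 4 conditions of light and temperature in seedlings of Arabidopsis thaliana. Each gene was represented by 1 of the 22810 probe sets of the array. The genes were chosen by name, with their behaviour on these same arrays already known, so the values below describe them and carry no test. For PDF1.2 (AT5G44420), PDF1.2b (AT2G26020), JRG21 (AT3G55970) and OSM34 (AT4G11650) the probe set was named by the array's gene table. The probe set of LOX2 (AT3G45140) was given by the selection rule and is unnamed in that table, so its identity rests on that rule.

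All groups were La-er seedlings with a phyA mutation in the far-red photoreceptor phytochrome A, and a wild type was not analysed here. The labels give the allele as phyA-2, except that the label of the low R:FR group at 16 °C gives phyA alone. Seedlings grew on soil at 16 or 22 °C, under white light with a photon flux of 100 micromoles per square metre and second, and were harvested on day 5. The red to far-red ratio of the light (R:FR) was 4.4 throughout in the high R:FR groups, and 0.1 for the last 24 h in the low R:FR groups. The RNA was that of cotyledons and a small part of hypocotyl, and each of the 4 groups had 1 array, with no statement of how many plants it pooled. No condition was repeated, so no difference below has a replicate check, and the precision is limited by the number of arrays.

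Jasmonate is a fatty-acid-derived hormone of wounding and defence. In the cell, lipoxygenases such as LOX2 begin its synthesis in the chloroplast, the active conjugate is perceived by COI1, repressors of the JAZ family are degraded and MYC factors are freed, while a branch shared with ethylene acts through ERF factors on defensin genes. Low R:FR, a signal of neighbouring plants, is known in Arabidopsis to dampen jasmonate-induced defence. JRG21, also called JOX3 or JAO3, encodes an oxygenase that hydroxylates jasmonate and is itself induced by jasmonate. PDF1.2 and PDF1.2b encode small cysteine-rich antifungal peptides and are standard markers of the branch shared with ethylene. OSM34 encodes an osmotin-like protein of the thaumatin family, a family linked to pathogen and osmotic stress.

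The values are MAS5 signals, linear intensities with 1 value per probe set. The authors' signals had the same mean on every array, about 100.01, when the highest and lowest 2% of values were left out. Signals below 14.5, the 30th percentile of all values, were set to that floor before log2 was taken, and a ratio against the floor is a bound, written "at least". Control transcripts absent from the sample had a median signal of 2.2 and a highest signal of 17.9. Of 22746 probe sets other than controls, 13648 were bright enough to count as measured, and all 5 genes were among them. The filter was on the mean log2 of the 4 arrays, and PDF1.2 passed it only through its signals of 22 °C. Transcripts spiked in at hybridization, 18 probe sets, had log2 differences with an SD of 0.21 for the light comparison at 16 °C and of 0.23 at 22 °C, and of 0.21 for the temperature comparison in either light. They cover neither plants nor RNA extraction nor labelling. A local SD is given beside single genes. It is the robust spread of log2 changes over the 500 probe sets whose mean signal came closest.

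The labelled tissue was checked against markers. Of 9 markers of green tissue 4 were named and all were measured, with a summed signal between 9174 and 10072 on the 4 arrays. Of 7 root markers 2 were named. EXPA7 had signals of 5 to 15.8, near or below the floor, and PYK10, which is also expressed in hypocotyls, had 2024 and 1083 at 16 °C in high and low R:FR and 2913 and 2835 at 22 °C, so PYK10 was bright on every array. The apex marker CLV3, the named gene of 4, was below the floor on all 4 arrays, and none of 6 seed markers was named. The array of low R:FR at 16 °C lay at least 2-fold below all the others for 258 measured probe sets (1.89%), among them PDF1.2b, JRG21 and OSM34, against 70 for high R:FR at 16 °C and at most 17 for the arrays of 22 °C. RNA and label quality can be read from 6 pairs of control probe sets at the 3' and 5' ends of a transcript. Their mean log2 ratio, 3' over 5', was 0.54 on that array and between 0.64 and 0.82 on the others. The part of these array differences in the results below was not tested.

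JRG21, the jasmonate oxygenase gene, had a signal of 45.4 under high R:FR and 6.2 under low R:FR at 16 °C. At 22 °C the signals were 416 and 513, in the same order. Both signals of 22 °C were thus far above both of 16 °C, and the signal of low R:FR at 16 °C was below that of absent controls at their highest. OSM34 had a profile of the same shape. Its signals were 52.2 and 12.1 at 16 °C, and 306 and 571.3 at 22 °C, for high and low R:FR. It was below the floor on the same array as JRG21, and highest in low R:FR at 22 °C. In whole tissue, fewer cells that express a gene and less RNA per cell cannot be told apart.

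PDF1.2b, one of the defensin genes, had a signal of 71.8 under high R:FR and 13.5 under low R:FR at 16 °C, and 767 and 232 at 22 °C. PDF1.2, its paralog, had 24.4 and 12.6 at 16 °C and 164 and 59.2 at 22 °C. PDF1.2 and PDF1.2b shared 1 order of conditions, from low R:FR at 16 °C through high R:FR at 16 °C and low R:FR at 22 °C to high R:FR at 22 °C. That order was found for 7.35% of measured probe sets. The order of JRG21 and OSM34, with the conditions of 22 °C exchanged, was found for 9.93%. The probe set of PDF1.2b carries the suffix by which the array maker marks probes shared with other sequences, so it may read PDF1.2b together with relatives. Counts of genes below that hold both PDF1.2 and PDF1.2b may therefore hold readings that are not separate. In RefSeq's gene order PDF1.2b lies beside PDF1.3, and PDF1.2 beside PDF1.2c, and neither neighbour had a named probe set here.

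LOX2, the lipoxygenase gene of jasmonate synthesis, had signals of 1034 and 1069 at 16 °C and of 1242 and 1342 at 22 °C, in high and low R:FR. Its highest signal was 1.297 times its lowest. For the other genes the lowest signal was below the floor, so their range is a bound, in log2 at least 3.50 for PDF1.2, 5.14 for JRG21, 5.30 for OSM34 and 5.73 for PDF1.2b, with no order among them.

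**Figure D1:**
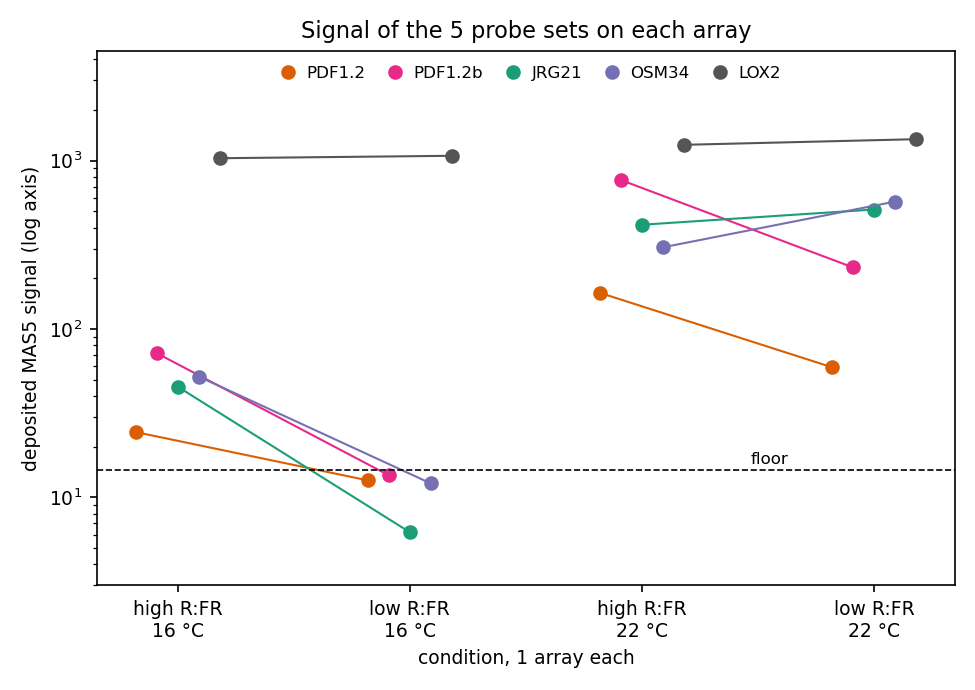
Deposited signal of the 5 probe sets (y axis, logarithmic, arbitrary units) on the array of each condition (x axis), with lines joining the light conditions of a temperature and a dashed line at the floor of 14.5. PDF1.2, PDF1.2b, JRG21 and OSM34 lie below the floor in low R:FR at 16 °C and between 59.2 and 767 at 22 °C, whereas LOX2 stays between 1034 and 1342.

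The largest ratios of these transcripts lay between the growth temperatures. In high R:FR, 4 of the 5 genes were at least 2-fold lower at 16 than at 22 °C and none was higher, where 3.17% of measured probe sets were lower by that rule and 1.11% higher. PDF1.2b was 10.7-fold lower (log2 -3.42, local SD 0.33), JRG21 9.17-fold (log2 -3.20, local SD 0.33), PDF1.2 6.71-fold (log2 -2.75, local SD 0.44) and OSM34 5.85-fold (log2 -2.55, local SD 0.33). PDF1.2 was at log2 -2.12 with the floor raised to 37.8, the median (50th percentile) of all signals, and at -2.20 with a pseudocount. Counted from the lowest of 13648, they held places 1, 4, 9 and 12. All their signals lay above the floor in this comparison, and it does not use the array of low R:FR at 16 °C. Age was the same in days, and growth stage at that age was not measured, so it cannot be told apart from temperature.

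In low R:FR the same 4 genes were lower at 16 °C, against a background of 6.61% lower and 1.62% higher. Each had its 16 °C signal below the floor, which leaves bounds. OSM34 was at least 39.4-fold lower (log2 -5.30, local SD 0.39) and JRG21 at least 35.4-fold (log2 -5.14, local SD 0.41). The order of these bounds is set by the signals of 22 °C and turns with a floor at the 10th percentile, where JRG21 was at -6.37 and OSM34 at -5.56. PDF1.2b was at least 16-fold lower (log2 -4.00, local SD 0.41) and PDF1.2 at least 4.08-fold (log2 -2.03, local SD 0.43). With the higher floor of 37.8 the values became log2 -3.92, -3.76, -2.62 and -0.65, so that PDF1.2 no longer passed 2-fold. PYK10 was lower at 16 °C as well, at log2 -1.39 in this light (local SD 0.27) and -0.53 in high R:FR (local SD 0.21), and its part in these results was not tested.

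Both arrays of 16 °C lay at least 2-fold below both arrays of 22 °C for 4 of the 5 genes, as for 145 measured probe sets (1.06%). LOX2 was not among them. Under high R:FR its log2 difference was -0.26 (local SD 0.29) and under low R:FR -0.33 (local SD 0.33), each about the local spread. Its sign was kept in either light with arrays scaled by medians or by quantiles, at -0.15 and -0.36 in high R:FR. The other floors, the pseudocount and the filters could not turn it, and the values as deposited were nearly those used.

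**Figure D2:**
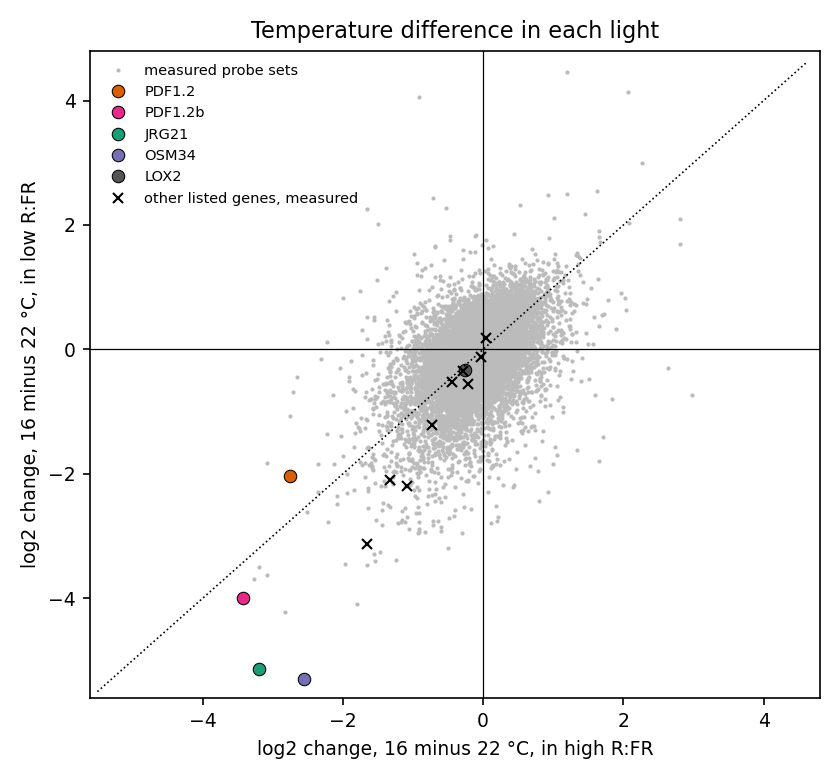
Log2 change from 22 to 16 °C in high R:FR (x axis) against that in low R:FR (y axis) for the 13648 measured probe sets (grey), the 5 genes (coloured) and the other listed genes that were measured (crosses). PDF1.2, PDF1.2b, JRG21 and OSM34 lie at the lower left, at -2.55 or lower on the x axis, and their y values are bounds, while LOX2 lies near the origin.

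The light comparison divided the genes by temperature. At 22 °C, where no signal of these genes was near the floor, PDF1.2 and PDF1.2b were lower in low R:FR, while the 3 other defensin genes measured were at log2 0.29 (PDF1.4), 0.02 (LCR69) and 0.02 (LCR68). PDF1.2b was 3.31-fold lower (log2 -1.73, local SD 0.26) and PDF1.2 2.77-fold (log2 -1.47, local SD 0.36), places 1 and 8 from the lowest of 13648. These were 2 of the 5 genes, where 0.498% of measured probe sets were lower and 1.01% higher. OSM34 went the other way, 1.87-fold higher (log2 0.90, local SD 0.23), without passing 2-fold, and exceeded 98.7% of measured probe sets. JRG21 was at log2 0.30 (local SD 0.23) and LOX2 at 0.11 (local SD 0.19).

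At 16 °C, the low R:FR signals of PDF1.2, PDF1.2b, JRG21 and OSM34 were all below the floor. Relative to high R:FR, PDF1.2b was at least 4.95-fold lower (log2 -2.31, local SD 0.33), OSM34 at least 3.6-fold (log2 -1.85, local SD 0.33), JRG21 at least 3.13-fold (log2 -1.65, local SD 0.32) and PDF1.2 at least 1.68-fold (log2 -0.75, local SD 0.45). The count past 2-fold was 3 of 5, against 2.89% of measured probe sets lower and 1.84% higher. None of the 3 passed 2-fold with the higher floor, where PDF1.2b was at -0.93, OSM34 at -0.47 and JRG21 at -0.26. This comparison rests on the array that stood apart above, and cannot be made without it. The root marker PYK10 was at log2 -0.90 here (local SD 0.14), and its part in these values was not tested. LOX2 was at log2 0.05 (local SD 0.18).

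**Figure D3:**
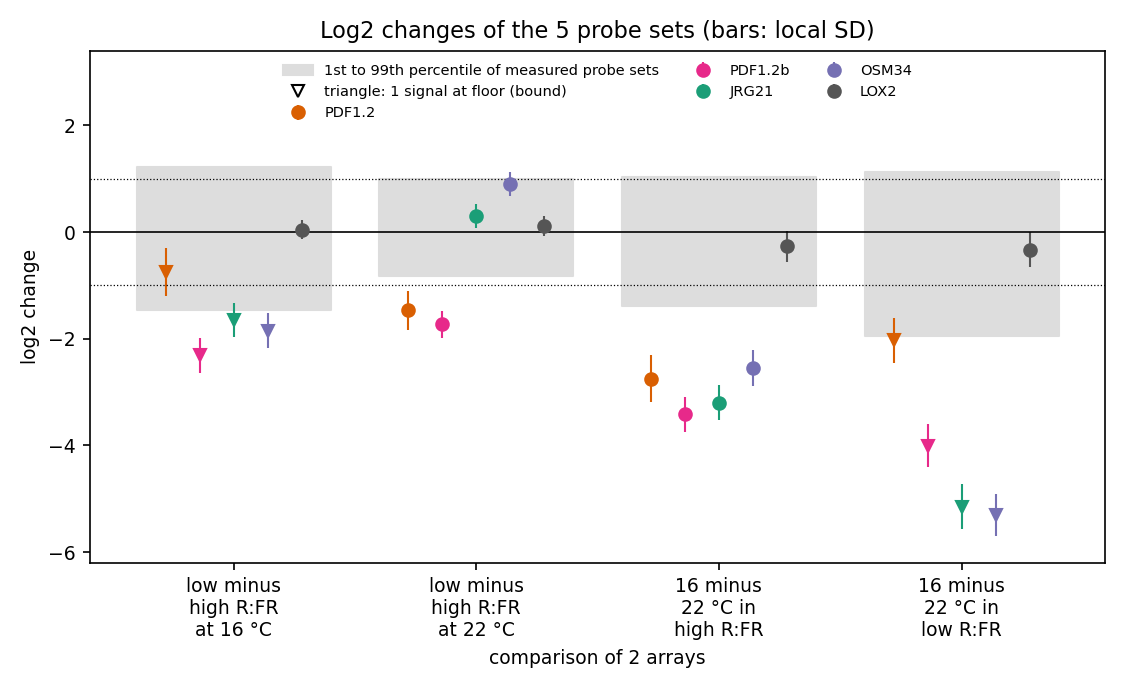
Log2 change of the 5 probe sets (y axis) in the 4 comparisons of 2 arrays (x axis), with bars of 1 local SD, triangles where 1 signal was at the floor, and grey bands from the 1st to the 99th percentile of measured probe sets. In high R:FR the 4 genes other than LOX2 lie from -2.55 to -3.42, below the band, and at 22 °C PDF1.2 and PDF1.2b lie below the band while OSM34 is at 0.90.

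The stated interest of the series was whether the light response depends on temperature, taken here as the log2 response at 16 °C less the response at 22 °C. OSM34 had a difference of at most -2.75 (local SD 0.40) and JRG21 of at most -1.95 (local SD 0.40), so 2 of the 5 genes were past -1, where 4.16% of measured probe sets were and 2.31% were past 1. With the higher floor the differences were -1.37 and -0.56. Both genes were below the floor under low R:FR at 16 °C and had their highest signal under low R:FR at 22 °C. For PDF1.2 and PDF1.2b no firm direction can be given. The difference was at most -0.58 for PDF1.2b, but 0.04 with a pseudocount instead, and at most 0.80 with the higher floor. For PDF1.2 it was at most 0.72, which leaves its sign unknown. LOX2 was at -0.06 (local SD 0.24).

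Likeness among the profiles was measured as the root mean square difference of log2 signals over the 4 arrays, after each profile was centred on its own mean. JRG21 and OSM34 were the closest pair of the 5 genes at 0.26, and each was the nearest of 7319 measured probe sets with 1 gene to the other. Both are at the floor on 1 of the 4 arrays, which hides any difference there. PDF1.2 and PDF1.2b differed by 0.86, and PDF1.2b and JRG21 by 0.79. These genes too were all set to the floor in low R:FR at 16 °C, so the order of these distances is not firm. At 22 °C, above the floor, the log2 light response was -1.47 for PDF1.2, -1.73 for PDF1.2b and 0.30 for JRG21. Beside OSM34 and PDF1.2b, the 5 nearest to JRG21 were AT3G16530 (0.78), AT4G16260 (0.81) and AT5G05600 (0.90). The last, JOX2, is by name a relative of JRG21 (JOX3). AT3G16530 was also the nearest to PDF1.2b, at 0.69, with signals of 122 and 32.1 at 16 °C and 479 and 351 at 22 °C, in high and low R:FR. AT4G16260 and AT2G38870 were among the 5 nearest to OSM34, at 0.72 and 0.85.

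Among the genes nearest to PDF1.2b, its paralog PDF1.2 held place 3, at 0.86. The 5 nearest to PDF1.2 did not include PDF1.2b and shared no gene with the 5 nearest to PDF1.2b. The nearest to PDF1.2 were AT2G27080 at 0.28, AT1G14120 at 0.43, ATPMEPCRD at 0.45, AT4G17470 at 0.46 and JAL22 at 0.48. Of these, AT2G27080 and ATPMEPCRD were below the floor on both arrays of 16 °C, and AT4G17470 in low R:FR. In high R:FR at 16 °C PDF1.2, at 24.4, was itself nearer the floor than PDF1.2b, at 71.8. The part of the floor in the difference between their neighbours was not tested. JAL22, which encodes a jacalin-related lectin, had signals well above the floor, 261 and 116 at 16 °C and 716 and 530 at 22 °C. LOX2 had a flat profile, as most genes did. Of 7320 candidates 2613 lay within 0.2 of it and 6704 (91.6%) within 0.5. Its nearest genes, AT2G25760 (0.01), AT2G32910 (0.01), AT5G58920 (0.01), AT3G27700 (0.02) and AT3G48185 (0.02), thus single out no pattern. None of the candidates lay within 0.2 of any of the other 4 genes.

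Other genes of the pathway were taken from 10 lists of 103 genes. Of these, 16 had a probe set named in the gene table used here and 9 passed as measured. That table left 8730 probe sets unnamed, so a gene without a named probe set may still be on the array. The coverage is thin. Over the 5 jasmonate lists (synthesis, turnover, signalling, and the ERF and MYC branches) 5 of 67 genes were measured. In low R:FR 3 of these 5 were at least 2-fold lower at 16 than at 22 °C and none was higher (6.61% of all measured probe sets were lower), with a median log2 of -1.22 beside -0.05 over all measured probe sets. In high R:FR it was 2 of 5 (3.17% of all), with a median of -0.73 beside -0.04. For light at 16 °C it was 1 of 5 lower (2.89% of all), with a median of -0.71 beside 0.01, and at 22 °C none passed 2-fold in either direction (0.498% of all were lower and 1.01% higher), with a median of -0.05 beside 0.01.

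The members that passed were those of synthesis and turnover. Those of turnover, AT5G05600 (JOX2) and AT2G38240 (JOX4), are by name relatives of JRG21 (JOX3). The counts above thus hold relatives of a gene that was chosen with its behaviour known. AT5G05600, from the turnover list, had signals of 98.2 and 34.8 at 16 °C and 311 and 306 at 22 °C, in high and low R:FR. All 4 are above the floor, so its ratios are not bounds. It was 3.17-fold lower at 16 °C in high R:FR (log2 -1.66, local SD 0.34), 8.78-fold in low R:FR (log2 -3.13, local SD 0.45). Its log2 light response was -1.50 at 16 °C (2.82-fold lower, local SD 0.31) and -0.02 at 22 °C. AT2G38240, from the same list, had 63.6 and 39 at 16 °C and 160 and 167 at 22 °C, and was 2.51-fold and 4.28-fold lower at 16 °C in high and low R:FR. AT3G11180, the other named gene of the list, was below the floor on every array. OPCL1, which encodes a ligase that activates jasmonate precursors for chain shortening, had 83.2 and 57.2 at 16 °C and 138 and 133 at 22 °C, and passed 2-fold only between the temperatures in low R:FR (2.33-fold lower at 16 °C). DGL, a lipase gene, and JMT, the jasmonate methyltransferase gene, were below the floor on all 4 arrays.

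No measured gene of the signalling list passed 2-fold. MYC3, which encodes a transcription factor released by JAZ degradation, had signals of 54.5 and 32.6 at 16 °C and 63 and 47.7 at 22 °C, with log2 light responses of -0.74 (local SD 0.44) and -0.40 (local SD 0.32). MYC4, its relative, lay between 28.5 and 32.3 on all arrays. No gene of COI1, the JAZ family or MYC2 had a named probe set, nor had any of the 11 genes of the MYC branch, which includes VSP2, or of the 12 of salicylate defence. In the ERF branch the named gene was THI2.1, a thionin gene, which was not counted as measured. It was below the floor at 16 °C, with 3.5 and 10.8, and above it at 22 °C, with 27.3 and 29.4. EIN3, a transcription factor gene of ethylene signalling and the named gene of 14, had 239 and 274 at 16 °C and 326 and 395 at 22 °C and passed 2-fold in no comparison.

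Of 6 other defensin genes, all named, 3 were measured. PDF1.4 had signals of 104 and 58.9 at 16 °C and 220 and 270 at 22 °C, in high and low R:FR. It was thus lower at both light conditions of 16 °C, by 2.11-fold in high R:FR (log2 -1.08, local SD 0.35, or -0.96 after scaling by medians) and by 4.58-fold under low R:FR (log2 -2.20, local SD 0.45). Its light responses were -0.82 at 16 °C (local SD 0.28) and 0.29 at 22 °C (local SD 0.24), so that its order of conditions was that of JRG21 and OSM34, not that of PDF1.2. LCR69 (PDF2.2) lay between 1832 and 2340 and LCR68 (PDF2.3) between 704 and 764, with no change past 2-fold. The median of the 3 was the value of LCR69. For temperature it was -0.29 under high R:FR (local SD 0.21) and -0.35 under low R:FR (local SD 0.26), beside -0.04 and -0.05 over all measured probe sets. With arrays scaled to the same median LCR69 was at -0.17 and -0.18. In each light 1 of the 3, PDF1.4, was at least 2-fold lower at 16 °C, where 3.17% and 6.61% of all were. LCR67 (PDF1.1), PDF2.1 and PDF2.5 had signals of at most 20 and were not measured. Lists of other lipoxygenase and thaumatin genes had no named probe set.

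**Figure D4:**
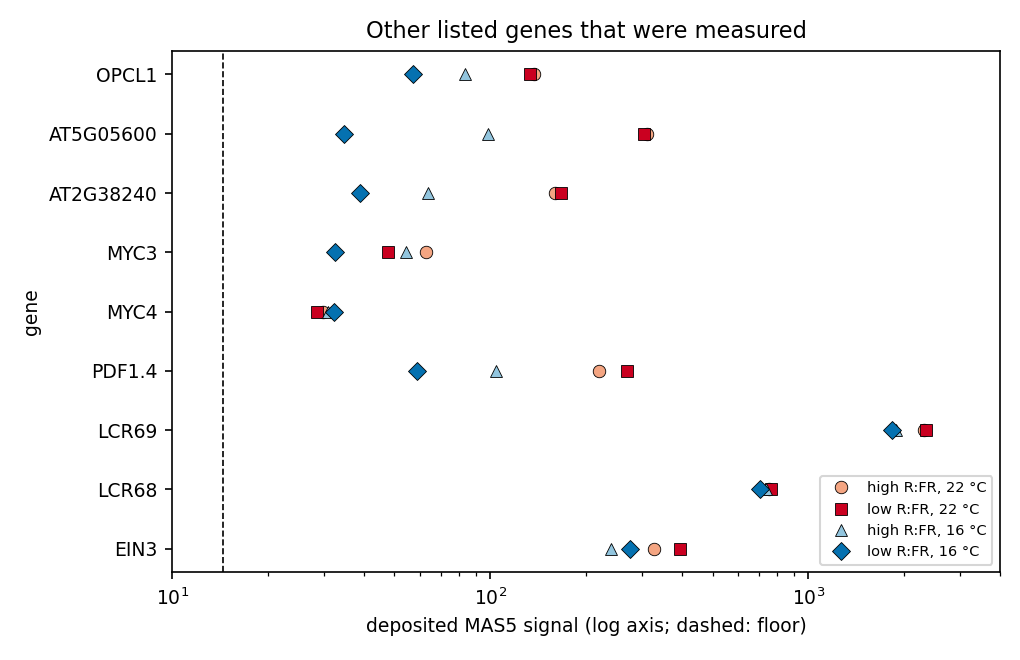
Deposited signal (x axis, logarithmic, arbitrary units) of the 9 measured genes of the lists (y axis), with 1 symbol for each condition and a dashed line at the floor. Both 16 °C signals lie to the left of both 22 °C signals for all genes but MYC3 and MYC4, by wide gaps for AT5G05600, AT2G38240 and PDF1.4 and narrow ones for LCR69 and LCR68. The share of all measured probe sets with this order, at any size, was not counted. For LCR68 the order was not kept with arrays scaled to the same median, where its temperature change was log2 0.09 in high and 0.06 in low R:FR.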

How the data were processed

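The deposited table holds linear intensity values made by the authors with MAS5, per the submitters' processing notes. Not given in the sources used here are its version, settings and detection calls. From these, the arrays were brought to a common 2% trimmed mean, floored at the 30th percentile (14.5) and put on a log2 scale. Control probe sets (64) were left out, and a probe set counted as measured where its mean log2 reached the 40th percentile (a signal of 23.2). With 1 array per group, a change is a rule of size, at least 2-fold, and no test was made. Probe sets were named through the array's gene table and RefSeq's TAIR10.1 gene table. Of 22746 probe sets 13513 had 1 gene (13436 matched), 503 had several and 8730 were unnamed here. Coordinates are not printed, since no build is stated for the values, and sequences were not used here, so a planned search of promoters for motifs was not made.

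The 5 genes and the lists were chosen with earlier results of these data known. Genes named were the 5 genes, listed genes past 2-fold in a pairwise comparison or otherwise those nearest their list's median, and the 5 nearest profiles of each gene. Other listed genes with a named probe set are given to account for the lists. The steps were tested on simulated data with known changes. These were placed in bright probe sets only, so changes that reach the floor were not covered. Python 3.11.15, numpy 2.4.6 and pandas 2.3.3 were used.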

Additional observations from a re-analysis of the deposited data

Results flagged for a closer look

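Genes are given here where the light responses at 16 and 22 °C had opposite signs, each on its single pair of arrays. None of these differences was tested. OSM34 had a difference of at most -2.75 (log2), from at most -1.85 at 16 °C and 0.90 at 22 °C, and JRG21 of at most -1.95, from at most -1.65 and 0.30. PDF1.4 had -1.12 from -0.82 and 0.29, with all signals above the floor, and AT2G38240 had -0.77 from -0.71 and 0.06. The 22 °C response of AT2G38240 lay within its local SD of 0.25, so its opposite sign is not firm. The opposite signs of MYC4 (0.14), LCR69 (-0.060) and LCR68 (-0.087) came from responses of at most 0.07 in size, and for LCR69 and LCR68 they were not kept with arrays scaled to the same median. For all of these genes but MYC4 the lowest of the 4 signals was that of low R:FR at 16 °C, the array with 258 probe sets at least 2-fold below the others.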

How the results depend on the processing

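Alternatives in scaling were none, by medians and by quantiles. Those in the floor were the 10th percentile, the 50th, and a pseudocount of 14.5 in its place, and those in the filter were none and the 60th percentile of mean signal. No change past 2-fold of the 5 genes turned its sign under any of these 8. For a pairwise ratio only the scaling could turn it, since a floor, a pseudocount or a filter cannot. With the 50th percentile as floor, the count of genes past 2-fold lower for light at 16 °C went from 3 to 0, those with a difference of light responses past -1 from 2 to 1, and those past 1 from 0 to 1. The last is PDF1.2, with both signals of 16 °C at that floor, so that its 1.47 is the 22 °C response with the sign turned and shows no difference. The higher floor hides more of each ratio, by its construction. With the 10th percentile as floor JRG21 was at -2.87 for light at 16 °C and -6.37 for temperature in low R:FR.

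Counts of measured probe sets that moved by over 1.5 times follow, higher first. For light at 16 °C, 251 and 395 became 119 and 205 with the floor at the 50th percentile, 124 and 257 with the pseudocount, and 102 and 208 with the filter at the 60th. For light at 22 °C, 138 and 68 became 63 and 18, 63 and 15, and 51 and 15 under the same settings. For temperature in high R:FR, 151 and 432 became 70 and 224, 59 and 226, and 59 and 193. For temperature in low R:FR, 221 and 902 became 144 and 536 with that floor and 125 and 475 with that filter, and 221 higher became 116 with the pseudocount and 419 with scaling to the same median. For the difference of light responses, 315 and 568 became 124 and 284, 135 and 341, and 89 and 248, and 315 became 501 without a filter. Scaling to the same median moved the median change of temperature from -0.05 to 0.12 in low R:FR and from -0.04 to 0.07 in high R:FR. The share of lower among changes past 2-fold went from 80.3% to 60.8% in low R:FR, from 74.1% to 58.5% in high R:FR, and from 33% to 45% for light at 22 °C.

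The median of the jasmonate lists, without a filter, went from -0.71 to 0 for light at 16 °C, from -0.73 to -0.21 for temperature in high R:FR and from -1.22 to -0.55 in low R:FR, since genes at the floor then count. With the filter at the 60th percentile the medians for temperature were -1.33 and -2.10, with fewer genes left. No paired analysis was possible because each group has 1 array. Signal near background limits every ratio of PDF1.2, PDF1.2b, JRG21 and OSM34 that uses the array of low R:FR at 16 °C.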
